A study of Mus musculus with 302 samples.

Results

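The subject is a contrast inside a single mouse cross: the 75 livers with the highest and the 75 livers with the lowest joint level of the immediate early genes Fos, Egr1, Jun and Btg2, out of 302 livers. The 2 sets are called immediate-early-high and immediate-early-low livers here, and the 152 livers between them belong to neither. Members were chosen from measured values. Each of the 4 genes was centred within 4 blocks of mice and divided by its SD, and the 4 values were averaged into a score for each mouse. The blocks cross the level of the Y-linked gene Eif2s3y (below or above -0.8 in log10) with the mouse's title number (up to 212, or above).

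All 302 mice were F2 animals, females and males, from intercrosses of the strains C57BL/6J and C3H/HeJ in both directions. Chow with 4% fat was given up to week 8, followed by 12 weeks of a Western diet (42% fat, 0.15% cholesterol). At 20 weeks they were killed after a 12-hour fast, and the livers were frozen. Parental strains, diet, age and fast were thus the same in immediate-early-high and immediate-early-low livers, and no treatment, genotype or sex in the labels separates them. The genotype of each mouse is not in the labels, so the mix of the parental genomes was not compared between the groups. Each array set the liver RNA of 1 mouse against a common pool made of equal parts of RNA from all samples, and a value is read as log10 of mouse over pool, so that 0 means the level of the pool. Such a ratio carries no level, so the presence of liver genes could not be checked from it and levels cannot be compared between genes. The whole liver was measured, so fewer cells of a type and less RNA per cell cannot be told apart.

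Immediate early genes are transcribed within minutes of a signal at the cell surface or of cell stress, from transcription factors already present in the cell, among them SRF with its ternary complex partners and CREB. Their products are transcription factors (the FOS and JUN families, which form AP-1, and EGR1), and proteins that end the response: phosphatases that switch MAP kinases off, and proteins that destroy short-lived mRNAs. In liver they are known to rise with hormones, growth factors, injury and the first steps of regeneration.

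Scores of immediate-early-high livers ran from 0.393 through a median of 0.732 to 4.21, and those of immediate-early-low livers from -1.77 through -0.869 to -0.473. The livers just inside and just outside the upper limit scored 0.393 and 0.372, and at the lower limit the liver inside scored -0.473 and the liver outside -0.466. There was thus no gap in the score at either limit. The blocks were close to even among immediate-early-high livers (19, 17, 21 and 18 mice), while immediate-early-low livers held 30, 14, 19 and 12. In the first of these blocks Eif2s3y was low and the title number was at most 212. Eif2s3y lay above -0.8 in 39 immediate-early-high and 31 immediate-early-low livers.

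The score followed the title numbers, and this stands before all results. All 6 scores above 2 belonged to mice numbered 75, 76, 79, 80, 83 and 85. Of the 13 mice numbered 73 to 85, 12 were immediate-early-high, 1 was in neither group and 0 were immediate-early-low. In 70 pairs of mice with consecutive numbers both were in a group, and in 51 of them (72.9%) it was the same group. Both were immediate-early-high in 25 pairs and immediate-early-low in 26, so runs occurred on both sides. Mice numbered 110 to 115, for example, were all immediate-early-low. No run of immediate-early-low livers was left out in a fit. What the numbers order is not given in the labels, so their part in the results was tested only as far as the fits without mice 73 to 85, with the number as a straight line, and with it as a spline of 10 degrees of freedom. The arrays of the groups had a similar spread over probes, with a median SD of 0.0987 in immediate-early-high and 0.0964 in immediate-early-low livers. Arrays with more than double the usual spread numbered 2 among immediate-early-high livers (mice 77 and 170) and 0 among immediate-early-low livers.

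**Figure D1:**
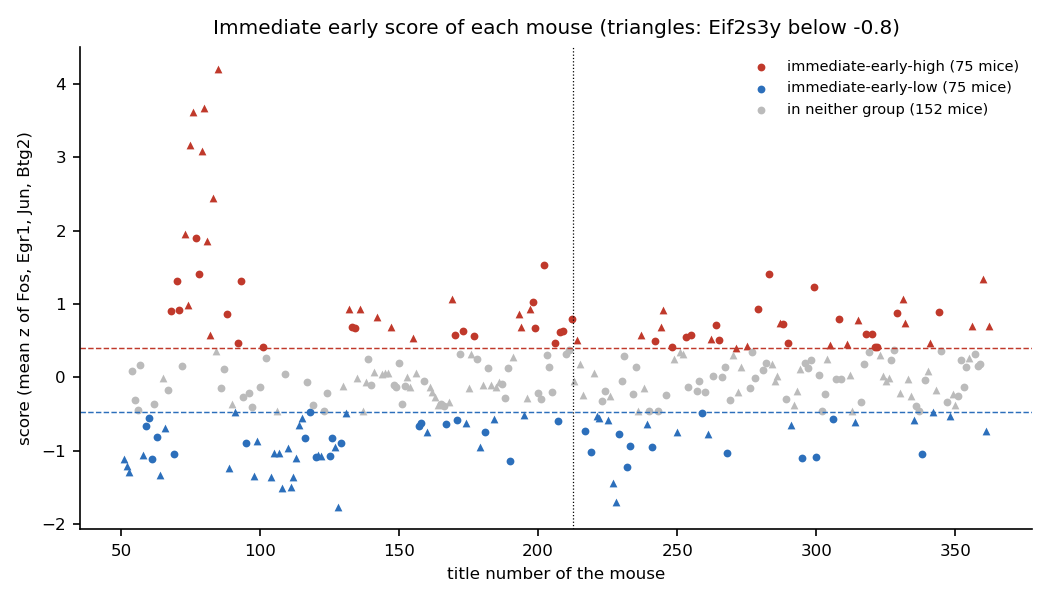
Score of each mouse (vertical axis, mean z of the 4 genes) against its title number (horizontal axis). Red points are the 75 immediate-early-high, blue the 75 immediate-early-low and grey the 152 other mice, triangles mark mice with Eif2s3y below -0.8, dashed lines mark the outermost members of each group, and the dotted line divides numbers up to 212 from those above. All 6 scores above 2 lie between numbers 75 and 85.

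The 4 genes that chose the livers are described without a test. Btg2, which holds back cell division, ran from -0.231 through a median of 0.207 to 0.886 in immediate-early-high livers, against -0.707, -0.378 and -0.0588 in immediate-early-low livers, and its mean difference was 3.89-fold. Egr1, a zinc finger transcription factor, ran from -0.572 through 0.259 to 0.722 in immediate-early-high livers, against -0.759, -0.354 and 0.148 in immediate-early-low livers, a difference of 3.79-fold. Jun, the DNA-binding partner of FOS in AP-1, ran from -0.233 through 0.0904 to 0.781 in immediate-early-high livers, against -0.564, -0.323 and -0.0943 in immediate-early-low livers, a difference of 2.89-fold. These 3 genes separated the groups in most mice: the value was above every immediate-early-low liver in 72 of 75 immediate-early-high livers for Btg2, 63 for Jun and 45 for Egr1. Fos had by far the narrowest range, from -0.0461 through 0.0351 to 0.495 in immediate-early-high livers, against -0.111, -0.0528 and 0.0320 in immediate-early-low livers. Its difference was 1.32-fold, and 41 immediate-early-high livers lay above every immediate-early-low liver. In 5 of the 6 mice with scores above 2, Fos lay between 0.387 and 0.495. Since each gene was divided by its own SD, Fos had the same weight in the score as the others. Because extreme livers were chosen, all differences here are wider than between livers taken at random, and a p-value says only that another gene went with these 4 among these mice.

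**Figure D2:**
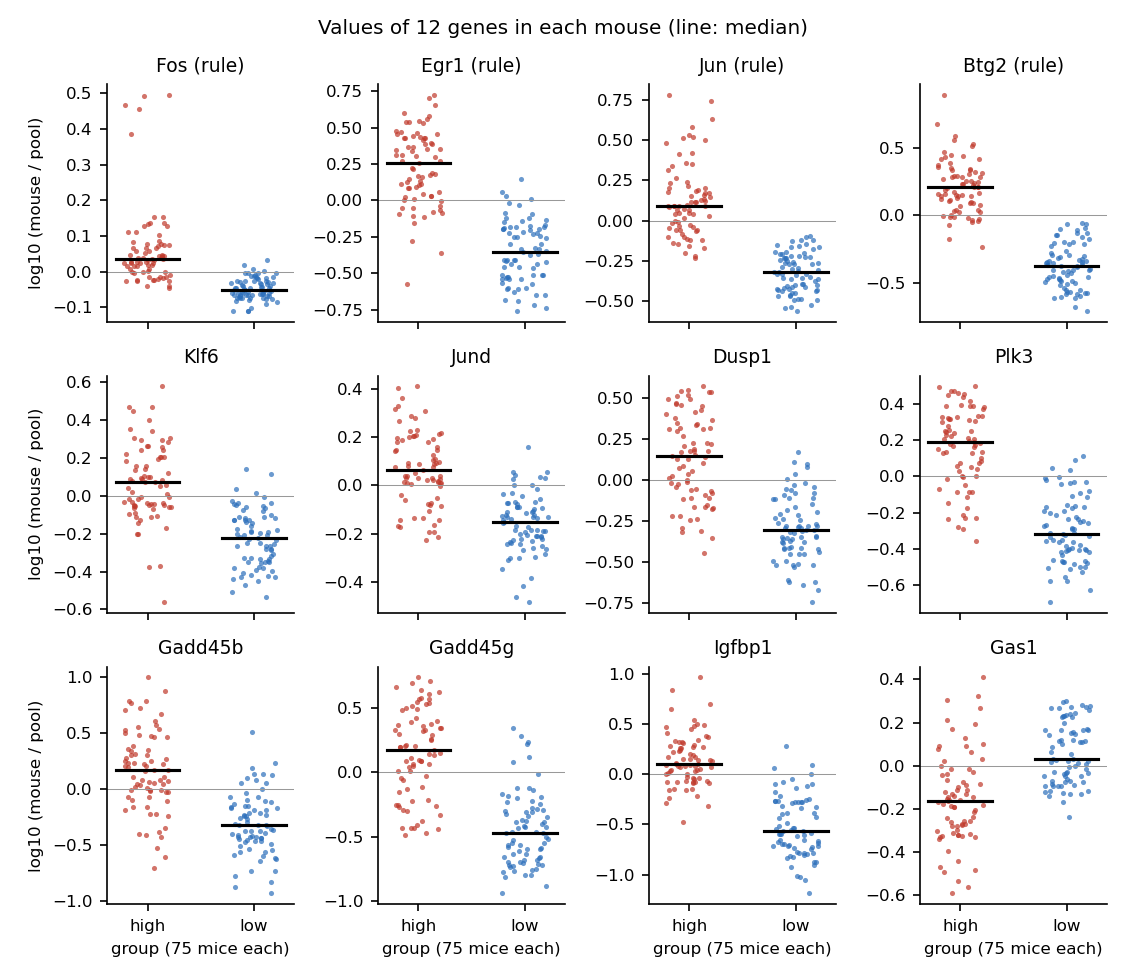
Log10 of mouse over pool in each mouse for the 4 genes of the score and for 8 further genes. Each point is 1 mouse, immediate-early-high on the left in red and immediate-early-low on the right in blue (75 each), and lines are medians. Fos has 5 mice between 0.387 and 0.495 and its other values lie closer to 0, and Gas1 is the gene among these 12 that is lower in immediate-early-high livers.

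Of 21703 other genes and unnamed probes fitted with limma, 1466 (6.75%) were higher in immediate-early-high livers and 1702 (7.84%) lower, at a Benjamini-Hochberg adjusted p under 0.05. Most differences were small, with a median of 1.109-fold among those higher and 1.104-fold among those lower. At a size of at least 1.2-fold, 357 (1.64%) were higher and 191 (0.88%) lower. Larger changes lay on the higher side: 13 rows were at least 2-fold higher and 0 at least 2-fold lower, and the extremes were 4.44-fold higher and 1.55-fold lower. The sign was the same in all 4 blocks for 323 of the 357 and for 183 of the 191. Without the mice numbered 73 to 85 the counts past 1.2-fold were 450 higher and 290 lower, and with the spline 464 and 346. Without the arrays of wide spread they were 360 and 191.

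Other immediate early transcription factors were higher in the same livers. Of 21 measured, 15 passed as higher, where 6.75% of all rows did, 0 passed as lower, and 6 did not pass. Their median was 1.41-fold, against 0.998-fold over all rows. Klf6, a zinc finger factor induced early in liver injury, ran from -0.562 through a median of 0.0736 to 0.578 in immediate-early-high livers, against -0.536, -0.225 and 0.141 in immediate-early-low livers. The ranges overlapped, and 72 of 75 immediate-early-high livers lay above the immediate-early-low median of Klf6. It was 1.99-fold higher (95% interval 1.75 to 2.27, adjusted p = 2.75e-16). Jund, the JUN family member that is present in resting cells, ran from -0.226 through 0.0624 to 0.411 in immediate-early-high livers, against -0.486, -0.152 and 0.161 in immediate-early-low livers. Jund was 1.69-fold higher (1.53 to 1.88, adjusted p = 1.26e-15), and 68 immediate-early-high livers were above the immediate-early-low median. Junb differed less, at 1.26-fold (adjusted p = 2.62e-14), with medians of 0.0574 in immediate-early-high and -0.0435 in immediate-early-low livers. Fosl1, a FOS relative, was 1.28-fold higher, while Fosl2 had 1.01-fold with an adjusted p of 0.732.

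Among partners and relatives of EGR1, Egr2 was 1.94-fold higher (1.57 to 2.39, adjusted p = 3.99e-07), and Egr3 had 1.005-fold (0.970 to 1.04). Atf3, the stress-induced repressor of the ATF family, was 1.81-fold higher, with medians of 0.0284 in immediate-early-high and -0.182 in immediate-early-low livers. The small early proteins Ier2 and Ier3 were 1.71-fold and 1.82-fold higher, and Ier5 had 1.09-fold (adjusted p = 0.272). Without the mice numbered 73 to 85, Ier5 passed at 1.16-fold (adjusted p = 0.0185). Klf2, Klf4 and Klf10 were 1.72-fold, 1.60-fold and 1.23-fold higher. The orphan nuclear receptor Nr4a1 was 1.53-fold and its relative Nr4a2 1.17-fold higher, while Nr4a3 had 1.004-fold (0.977 to 1.03). Myc was 1.41-fold and Csrnp1 1.47-fold higher, and Hes1 and Maff had 0.989-fold and 1.003-fold, with adjusted p of 0.713 and 0.935. In the FOS, EGR and NR4A families some members passed and Fosl2, Egr3 and Nr4a3 did not. Signal over background was not available, so an unchanged gene cannot be told here from a probe too dim to show a change. Differences between family members were not tested.

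Genes of feedback regulators and secreted early proteins were higher in part. Of 26 measured, 16 passed as higher and 0 as lower, where 6.75% and 7.84% of all rows did, and 10 did not pass, with a median of 1.21-fold. Gadd45g, which binds and activates stress kinase kinases, ran from -0.488 through a median of 0.172 to 0.740 in immediate-early-high livers, against -0.943, -0.473 and 0.343 in immediate-early-low livers. It was 3.66-fold higher (2.91 to 4.60, adjusted p = 7.38e-18), and 73 of 75 immediate-early-high livers exceeded the immediate-early-low median of Gadd45g. Its relative Gadd45b ran from -0.703 through 0.171 to 0.999 in immediate-early-high livers, against -0.932, -0.323 and 0.512 in immediate-early-low livers, and was 3.05-fold higher (2.47 to 3.78, adjusted p = 5.82e-16). Gadd45a was 1.41-fold higher, but 1.18-fold with an adjusted p of 0.186 without the mice numbered 73 to 85, and 1.08-fold with the spline (adjusted p = 0.638).

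Plk3, a stress-responsive polo-like kinase, separated the groups more cleanly than the Gadd45 genes. It ran from -0.357 through 0.191 to 0.498 in immediate-early-high livers, against -0.695, -0.318 and 0.115 in immediate-early-low livers. Plk3 was 2.79-fold higher (2.40 to 3.23, adjusted p = 4.74e-24), 74 immediate-early-high livers lay above the immediate-early-low median, and 48 lay above every immediate-early-low liver. Plk2 had 1.08-fold (0.989 to 1.18). Dusp1, the phosphatase that inactivates MAP kinases in the nucleus, ran from -0.441 through 0.144 to 0.569 in immediate-early-high livers, against -0.743, -0.305 and 0.173 in immediate-early-low livers, and was 2.74-fold higher (2.31 to 3.26, adjusted p = 1.55e-18). The phosphatases Dusp8 and Dusp5 were 1.81-fold and 1.63-fold higher, and Dusp2, known mainly from immune cells, had 0.996-fold (0.953 to 1.04). Zfp36, which destroys mRNAs with AU-rich elements, was 1.63-fold higher (1.495 to 1.77), and 75 of 75 immediate-early-high livers lay above the immediate-early-low median of Zfp36. Its relatives Zfp36l1 and Zfp36l2 had 1.07-fold and 1.02-fold and did not pass.

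The kinase Sgk1, an early target of glucocorticoids and serum, was 1.66-fold higher. Nfkbia, the inhibitor that NF-kB induces against itself, was 1.28-fold higher (1.203 to 1.36). Tob1, a relative of Btg2, was 1.25-fold higher (adjusted p = 0.0537 without the 10 highest and 10 lowest scores), and Btg1 had 1.097-fold (adjusted p = 0.0863), passing without those numbered 73 to 85 (1.124-fold, 0.0383). Among the matricellular proteins, Ccn2 was 1.55-fold higher (1.32 to 1.82). Ccn1 was 1.25-fold higher (adjusted p = 0.0138), but 1.001-fold without the mice numbered 73 to 85 (adjusted p = 0.992), and its median was -0.131 in immediate-early-high against -0.109 in immediate-early-low livers. The receptor kinase inhibitors Spry1 and Spry2 were 1.17-fold and 1.12-fold higher, Spry2 with an adjusted p of 0.161 without those mice and Spry1 with 0.0529 without the 10 highest and 10 lowest scores, and Spry4, Spred1 and Spred2 had 1.01-fold to 1.02-fold. Tnfaip3 was 1.08-fold higher (adjusted p = 0.0651 with the spline), and Rhob and Mcl1 had 1.02-fold and 0.985-fold and did not pass.

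**Figure D3:**
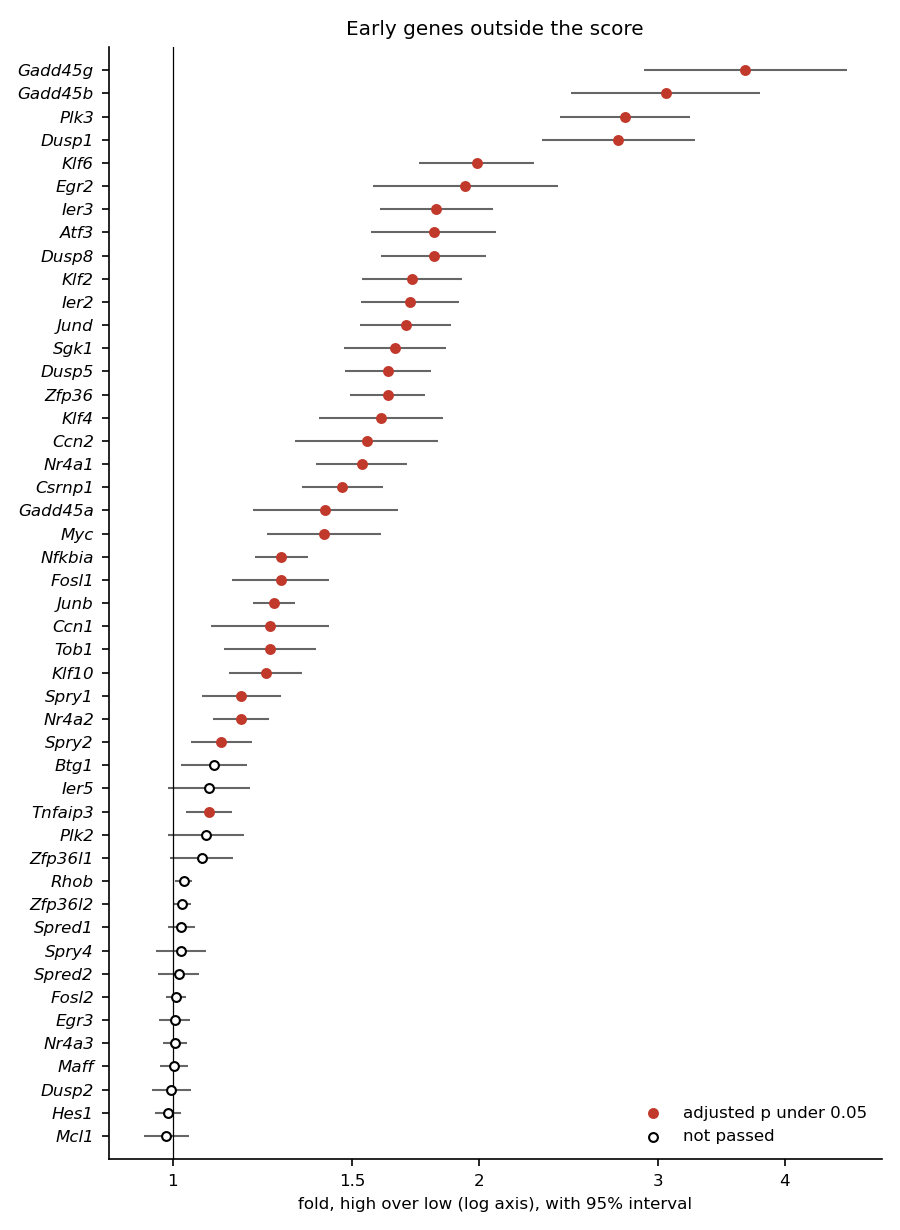
Fold difference, immediate-early-high over immediate-early-low livers (horizontal log axis), of the measured early genes outside the score, with 95% intervals from limma. Filled points passed an adjusted p of 0.05 and open points did not. Gadd45g, Gadd45b, Plk3 and Dusp1 stand apart above 2.5-fold, and all filled points lie on the higher side.

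Promoters of early genes carry known types of site, and these are shown for genes of the contrast because the members moved together. The 250 bases before the RefSeq start of each gene (build GRCm38.p6) were searched for the CArG box, which SRF binds, and for the CREB site TGACGTCA, and each motif reads alike on both strands. Windows matched 26 of the early genes that passed, and a CArG box was found in 3 of these genes (Zfp36, Egr2 and Dusp5) and the CREB site in 2 (Dusp8 and Dusp1). That is 15.4% and 5.13% of their 39 windows, against 1.47% and 1.55% of all 32851 windows and 1.42% and 1.94% of the 10858 windows of genes on the array. Windows of a gene can overlap and are not independent: 4 of the 6 windows with a CArG box belong to Egr2. Egr1, a gene of the score, was left out of this count. The other 3 genes of the score had a window each, and 0 of these held a CArG box. Bases further upstream were not searched. Among 12 early genes that did not pass, 0 held a CArG box and 2 held the CREB site. The sequences run 5′ to 3′ towards the start, with the motif in capitals.
Btg2 promoter, chr1:134079156-134079405, minus strand: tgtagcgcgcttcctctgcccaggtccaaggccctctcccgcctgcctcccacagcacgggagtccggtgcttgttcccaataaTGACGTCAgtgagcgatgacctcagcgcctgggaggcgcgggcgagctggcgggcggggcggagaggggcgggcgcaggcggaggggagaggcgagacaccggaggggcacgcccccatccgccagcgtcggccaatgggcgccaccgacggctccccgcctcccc
Dusp1 promoter, chr17:26508473-26508722, minus strand: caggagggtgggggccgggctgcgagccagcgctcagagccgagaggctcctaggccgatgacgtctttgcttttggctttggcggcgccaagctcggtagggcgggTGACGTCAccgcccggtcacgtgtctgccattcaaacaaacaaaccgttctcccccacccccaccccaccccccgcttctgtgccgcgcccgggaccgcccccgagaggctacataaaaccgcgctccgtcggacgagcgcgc
Dusp5 promoter, chr19:53528895-53529144, plus strand: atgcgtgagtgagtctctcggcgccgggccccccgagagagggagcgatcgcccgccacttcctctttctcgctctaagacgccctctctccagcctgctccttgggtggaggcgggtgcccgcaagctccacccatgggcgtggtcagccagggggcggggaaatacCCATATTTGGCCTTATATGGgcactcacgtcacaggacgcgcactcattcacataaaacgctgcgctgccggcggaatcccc
In Btg2, from the score, the CREB site starts 166 bases before the start, and in Dusp1 143 bases before it. Dusp5 holds 2 CArG boxes side by side, at 82 and 72 bases before the start. A match is a description of these letters and not of a bound site.

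Srf itself and the cytoplasmic actin genes Actg1 and Actb, which SRF is known to control, were also higher, while most genes of their lists did not pass. Srf ran from -0.0923 through a median of 0.0569 to 0.360 in immediate-early-high livers, against -0.173, -0.0323 and 0.153 in immediate-early-low livers, and was 1.29-fold higher (1.22 to 1.36, adjusted p = 4.34e-13). Crem, a CREB relative, was 1.16-fold higher (adjusted p = 0.0104), but did not pass with the spline (1.103-fold, adjusted p = 0.119). The receptor Erbb3 fell, 1.27-fold lower in immediate-early-high livers (1.17 to 1.38), with medians of -0.0795 in immediate-early-high and 0.0573 in immediate-early-low livers. Of 16 measured MAP kinase, SRF and CREB genes 3 were higher, 1 was lower and 12 did not pass, and the median was 0.993-fold. Of 11 SRF and YAP target genes of the cytoskeleton 4 were higher, 1 was lower and 6 did not pass, with a median of 1.07-fold. Over all rows 6.75% were higher and 7.84% lower. Actg1, cytoplasmic gamma actin, was 1.497-fold higher (1.40 to 1.61, adjusted p = 1.57e-18), and 75 of 75 immediate-early-high livers lay above the immediate-early-low median of Actg1. Actb was 1.22-fold higher. These actins are near-identical in sequence and each has several probes, whose folds ran from 0.961 to 1.90 for Actg1 and from 0.989 to 1.31 for Actb. Flna was 1.15-fold higher and Amotl2, an inhibitor of YAP, was 1.12-fold lower in immediate-early-high livers. The promoters of Srf and Actg1 are given because both held CArG boxes. Such boxes were not counted over these lists, and a part of SRF in the differences was not tested.
Srf promoter, chr17:46556163-46556412, minus strand: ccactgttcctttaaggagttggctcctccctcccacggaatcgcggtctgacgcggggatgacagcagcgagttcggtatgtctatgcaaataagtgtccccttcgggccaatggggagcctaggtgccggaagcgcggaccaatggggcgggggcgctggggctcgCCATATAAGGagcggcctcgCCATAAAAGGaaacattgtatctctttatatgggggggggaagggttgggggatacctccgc
Actg1 promoter, chr11:120348496-120348745, minus strand: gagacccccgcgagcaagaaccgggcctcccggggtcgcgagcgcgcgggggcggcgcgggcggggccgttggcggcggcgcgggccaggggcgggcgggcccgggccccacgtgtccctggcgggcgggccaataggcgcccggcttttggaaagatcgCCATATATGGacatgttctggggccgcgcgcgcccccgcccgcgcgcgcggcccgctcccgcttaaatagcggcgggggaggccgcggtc
The boxes of Srf begin 82 and 62 bases before the start, and that of Actg1 90 bases before it.

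Outside the early genes, the gene that differed most was Igfbp1, the insulin-like growth factor binding protein that liver secretes in fasting and stress and that insulin represses. It ran from -0.471 through a median of 0.0993 to 0.964 in immediate-early-high livers, against -1.19, -0.566 and 0.278 in immediate-early-low livers. All 75 immediate-early-high livers lay above the immediate-early-low median of Igfbp1, though only 20 lay above every immediate-early-low liver. The difference was 4.44-fold (3.63 to 5.44, adjusted p = 4.43e-26), and 3.84-fold with the spline. Igfbp1 stands on a list of 15 glucocorticoid and fasting genes, of which 10 were higher, 0 lower and 5 did not pass, with a median of 1.23-fold, where 6.75% of all rows passed as higher and 7.84% as lower. Lpin1, a phosphatidate phosphatase and coactivator of fasting genes, had medians of 0.194 in immediate-early-high and -0.369 in immediate-early-low livers and was 1.88-fold higher (1.49 to 2.38, adjusted p = 1.59e-05). The medians of Lpin1 lay further apart than this mean difference, which was fitted within blocks, and the cause was not tested. Cebpd, a transcription factor of the acute response, was 1.52-fold higher (1.42 to 1.64, adjusted p = 2.53e-19), and 74 immediate-early-high livers exceeded the immediate-early-low median. Ppargc1a, the coactivator of gluconeogenesis, was 1.34-fold higher (adjusted p = 0.00696). Averaged over its genes, that list ran from -0.203 through 0.0430 to 0.303 in immediate-early-high livers, against -0.287, -0.141 and 0.193 in immediate-early-low livers.

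Lists of related programmes passed in part, and their counts stand against the same 6.75% higher and 7.84% lower over all rows. Pdk4, which shuts pyruvate dehydrogenase in fasting, was 2.10-fold higher (1.70 to 2.58, adjusted p = 1.53e-08). Fgf21, Cyp4a14 and Angptl4 were 1.17-fold, 1.17-fold and 1.15-fold higher, so that 4 of 11 PPAR-alpha targets passed as higher and 0 as lower, with a list median of 1.04-fold. Among p53 targets 4 of 10 were higher and 0 lower: Trp53inp1 by 2.41-fold (1.95 to 2.96), the cell cycle inhibitor Cdkn1a by 2.09-fold (1.67 to 2.62), Pmaip1 by 1.22-fold and Phlda3 by 1.21-fold. The other 6 p53 targets did not pass, and the list median was 1.02-fold. Hypoxia genes passed as higher in 5 of 11 cases and as lower in 0, led by the glycolytic regulator Pfkfb3 with 1.76-fold (1.53 to 2.02) and the vasodilator Adm with 1.40-fold (1.29 to 1.52), and a list median of 1.07-fold. Of 15 clock genes 2 passed, Bhlhe40 with 1.53-fold (1.38 to 1.70) and Per1 with 1.11-fold, both higher and both known to respond to signals outside the clock. Usp2 had 1.17-fold (adjusted p = 0.133) and Nfil3 1.16-fold (adjusted p = 0.0654), and the median of the clock list was 0.986-fold.

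Further genes among the 15 most higher stand on none of the lists above. Rasd1, a small G protein induced by glucocorticoids, had medians of 0.170 in immediate-early-high and -0.308 in immediate-early-low livers and was 2.59-fold higher (2.18 to 3.08, adjusted p = 1.96e-17). Rgs16 and Rgs1, which end signalling by G protein-coupled receptors, were 2.55-fold (1.999 to 3.25) and 1.97-fold (1.68 to 2.31) higher. Noct, a deadenylase with a daily rhythm in liver, was 2.002-fold higher (1.65 to 2.43). Inhbb, the subunit of activin B, was 1.99-fold higher (1.57 to 2.53) and 1.73-fold with the spline. S100g, a calcium-binding protein, was 2.06-fold higher (1.67 to 2.55).

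Of 15 NF-kB target and cytokine genes 6 were higher, where 6.75% of all rows were, 0 were lower and 9 did not pass, with a median of 1.16-fold. The neutrophil chemokine Cxcl1 ran from -0.913 through a median of 0.146 to 0.857 in immediate-early-high livers, against -1.06, -0.410 and 0.695 in immediate-early-low livers, and was 1.94-fold higher (1.44 to 2.61, adjusted p = 0.000460). With the spline the adjusted p of Cxcl1 was 0.138. Relb was 1.46-fold higher (1.30 to 1.64). Ccl2, the monocyte chemokine, was 1.35-fold higher, and its adjusted p was 0.0809 without the mice numbered 73 to 85. Vcam1, an adhesion molecule, was 1.27-fold higher, with an adjusted p of 0.151 with the spline. Among 16 acute phase genes 5 were higher and 0 lower, among them Lcn2 with 1.41-fold (1.19 to 1.67), while Saa1 and Saa3 had 1.32-fold each and did not pass (adjusted p = 0.151 and 0.159). The call of Steap4, 1.26-fold higher, was lost with the spline (adjusted p = 0.130). Of 13 interferon genes Usp18 was 1.27-fold higher and Irf1 was 1.31-fold lower (1.18 to 1.44) in immediate-early-high livers, with Irf1 medians of -0.110 in immediate-early-high and 0.0391 in immediate-early-low livers.

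Of 9 neutrophil genes 4 lay on the higher and 5 on the lower side, with a median of 0.992-fold. Of these genes 3 passed as higher and 0 as lower, where 6.75% and 7.84% of all rows did: S100a9 by 1.52-fold (1.28 to 1.81), S100a8 by 1.36-fold (1.19 to 1.54) and Csf3r by 1.09-fold, Csf3r with an adjusted p of 0.0746 with the spline. The granule gene Camp had 0.948-fold (adjusted p = 0.761). Averaged over the neutrophil list, values ran from -0.154 through -0.0257 to 0.335 in immediate-early-high livers, against -0.190, -0.0693 and 0.324 in immediate-early-low livers. Of 14 macrophage genes 13 lay on the higher and 1 on the lower side, with a median of 1.08-fold, and 1 passed, as higher. Marco, the most different, had 1.27-fold (adjusted p = 0.243). Macrophage list means were -0.340, -0.0576 and 0.308 in immediate-early-high livers and -0.286, -0.0908 and 0.304 in immediate-early-low livers. Of 10 T and NK cell genes 3 were higher, with a list median of 1.03-fold. Among them Klrd1, with 1.24-fold, had an adjusted p of 0.173 with the spline, and Ccl5, with 1.22-fold, had 0.129 without the mice numbered 73 to 85. Of 3 B cell genes 0 passed. Endothelial genes split, with 3 of 11 higher, Lyve1 by 1.25-fold (1.12 to 1.40), Tie1 by 1.16-fold and Egfl7 by 1.11-fold, and 2 lower. The endothelial list mean ran from -0.135 through 0.00605 to 0.0978 in immediate-early-high livers, against -0.0936, -0.00960 and 0.0596 in immediate-early-low livers. Of 10 stellate cell and matrix genes and of 6 red blood cell genes 0 passed. Cftr and Epcam, 2 of 5 bile duct genes, were 1.199-fold and 1.15-fold higher, Cela2a was the only one of 4 exocrine pancreas genes to pass, with 1.22-fold (adjusted p = 0.0621 with the spline), and of 4 fat cell genes 0 passed. The part of these cell types in the differences of other genes was not tested.

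Most hepatocyte genes did not pass: 6 of 8 secreted and marker genes, 7 of 8 pericentral and 4 of 5 periportal genes. Over all rows 6.75% passed as higher and 7.84% as lower. Of 8 secreted and marker genes Cebpa, a factor that maintains hepatocytes, was 1.26-fold higher (1.196 to 1.33, adjusted p = 8.67e-12), and Ttr was 1.08-fold lower in immediate-early-high livers, but had an adjusted p of 0.0954 with the spline. Of 13 pericentral and periportal genes, Lgr5 was 1.24-fold lower (adjusted p = 0.0930 with the spline) and Cdh1 1.16-fold higher, although the probes of Cdh1 had 0.997-fold and 1.36-fold. Of 11 bile acid genes 3 passed as lower, where 7.84% of all rows did, and 0 as higher, with a list median of 0.959-fold. Slc10a1, the main bile acid uptake carrier of hepatocytes, ran from -0.291 through a median of -0.0517 to 0.250 in immediate-early-high livers, against -0.107, 0.0804 and 0.363 in immediate-early-low livers. Slc10a1 was 1.31-fold lower (1.22 to 1.41, adjusted p = 6.85e-09), and 62 of 75 immediate-early-high livers lay below the immediate-early-low median. The hydroxylase Cyp7b1 was 1.31-fold lower (1.099 to 1.57, adjusted p = 0.0255) and the reductase Akr1d1 1.21-fold lower, with an adjusted p of 0.0549 for Akr1d1 without the mice numbered 73 to 85. In drug metabolism 1 of 14 genes passed as higher, where 6.75% of all rows did. That gene was Alas1, the first enzyme of haem synthesis, with 1.29-fold (adjusted p = 0.0772 with the spline). Of 12 sterol synthesis genes 0 passed, Sqle being the most different with 1.34-fold (adjusted p = 0.124), and of 12 fatty acid synthesis genes Mlxipl, the carbohydrate-responsive factor ChREBP, was 1.18-fold lower (1.11 to 1.26).

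Of 15 cytosolic heat shock genes 0 passed as higher and 5 as lower, where 6.75% and 7.84% of all rows did, and 10 did not pass, with a median of 0.951-fold. Hsph1 was 1.27-fold lower in immediate-early-high livers (1.12 to 1.44, adjusted p = 0.00353) and Hspe1 1.12-fold lower (adjusted p = 0.0955 with the spline). Hspa1a and Hspb1 had 1.15-fold and 1.17-fold with adjusted p of 0.226 and 0.318. Among 13 ER chaperone and ATF4 target genes Atf4 was 1.21-fold higher (1.14 to 1.27) and Sesn2 1.12-fold higher, and the other 11 did not pass. Of 10 NRF2 targets 2 were higher, Cbr3 by 1.14-fold and Txnrd1 by 1.07-fold. Of 14 cell cycle genes Ccnd1, the cyclin of the G1 phase, was 1.43-fold higher (1.25 to 1.64) and Rrm2 1.195-fold higher, with probes of 0.911-fold and 1.54-fold for Rrm2. Of 11 ribosomal protein genes 0 passed, with Rpl13 at 1.05-fold (adjusted p = 0.0514), and of 8 oxidative phosphorylation genes Cox7b and Ndufa1 were lower, with 0.908-fold and 0.911-fold, Cox7b with an adjusted p of 0.0669 with the spline.

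**Figure D4:**
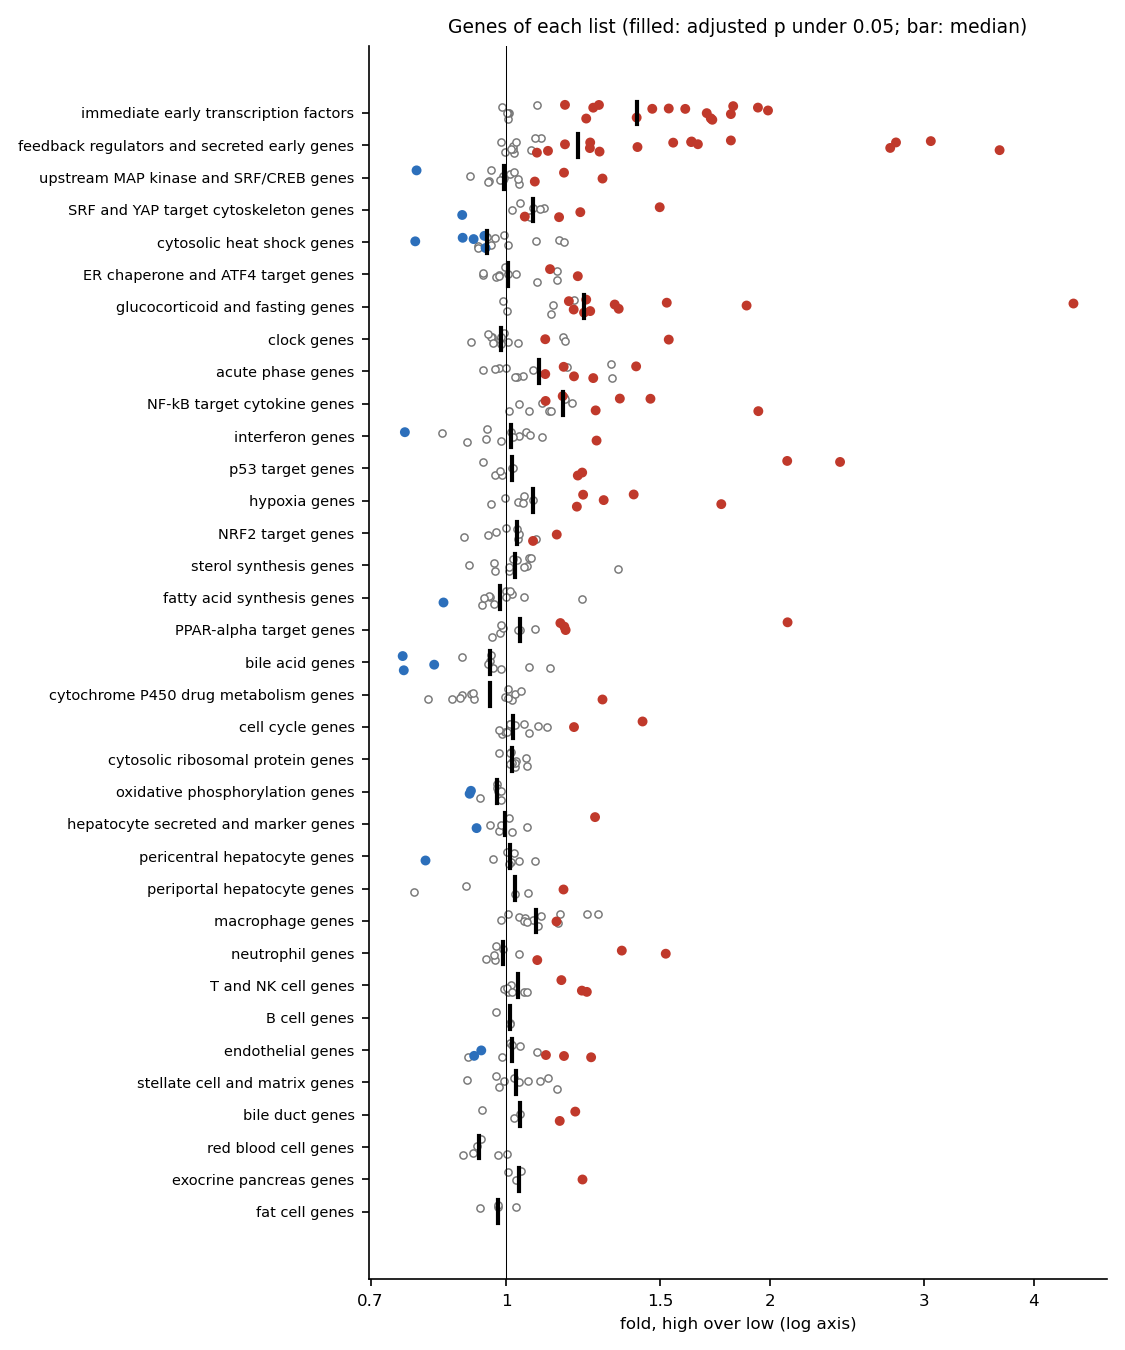
Fold difference, immediate-early-high over immediate-early-low livers (horizontal log axis), of the measured genes of each list. Each point is a gene, filled where the adjusted p from limma was under 0.05 (red higher, blue lower), and bars are list medians. The lists of early genes and of glucocorticoid and fasting genes have the medians farthest to the right, at 1.41, 1.21 and 1.23, while red blood cell genes have the lowest, at 0.931 with 0 filled points.

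The genes most lower in immediate-early-high livers differed less than those most higher and fell on no single list. Gas1, a membrane protein first found in growth-arrested cells, ran from -0.592 through a median of -0.165 to 0.409 in immediate-early-high livers, against -0.236, 0.0296 and 0.302 in immediate-early-low livers. It was 1.502-fold lower (1.35 to 1.68, adjusted p = 1.93e-09), and 61 immediate-early-high livers lay below the immediate-early-low median of Gas1. Cnmd, which encodes chondromodulin, was 1.55-fold lower (1.33 to 1.81), and the lipase inhibitor G0s2 was 1.45-fold lower (1.27 to 1.67), with G0s2 medians of -0.162 in immediate-early-high and 0.0408 in immediate-early-low livers. The pro-death gene Bik was 1.40-fold lower (1.26 to 1.56). Cd163, the macrophage scavenger receptor for haemoglobin, was 1.45-fold lower (1.18 to 1.79, adjusted p = 0.00732), Alg8 1.45-fold and Dct 1.48-fold. Cd163 is not on the macrophage list, whose genes lay mostly on the higher side. Fign, with 66 of 75 immediate-early-high livers below the immediate-early-low median, was 1.34-fold lower (1.22 to 1.47). Sucnr1, the succinate receptor, was 1.35-fold and the fructose carrier Slc2a5 1.32-fold lower. The transcription factors Zfp467, Zfp503, Tfap4 and Rfx4 were 1.37-fold, 1.35-fold, 1.36-fold and 1.36-fold lower, and Rfx4 had an adjusted p of 0.0844 with the spline.

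The 152 livers in neither group were not used in the contrast, and in them each gene was fitted on the score, which still came from the same 4 genes on the same arrays. Their scores ran only from -0.466 to 0.372, so a fold per unit of score reaches beyond the range that these livers cover. With limma 51 rows (0.235%) rose with the score and 34 (0.157%) fell at an adjusted p under 0.05, and 2902 rows had an unadjusted p under 0.05. These counts depended on the fit: 21 rose and 8 fell with the title number as a straight line, 26 and 7 without blocks, and 25 and 12 with scaled arrays. Klf6 rose by 2.11-fold per unit of score (adjusted p = 1.05e-05). Plk3 rose by 2.42-fold (adjusted p = 0.00108), Dusp8 by 1.77-fold (0.00191) and Rgs1 by 2.04-fold (0.00139). Gadd45b, Dusp1, Ccn2, Dusp5, Klf2 and Klf4 also passed, with 2.54-fold, 2.14-fold, 2.11-fold, 1.60-fold, 1.67-fold and 1.85-fold, and so did Igfbp1 with 2.28-fold (0.0252) and Pdk4 with 2.24-fold (0.0483). Slc10a1 fell, with 0.750-fold per unit (0.0453). Among early transcription factors 16 of 21 slopes were positive and 3 passed, and among feedback genes 22 of 26 were positive and 6 passed. Over all rows 46.3% of slopes were positive.

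Several genes with clear differences between the extreme groups did not pass in the middle livers. The middle scores span less than the 1.903 units between the mean scores of the extreme groups. Not passing there therefore does not show that a gene followed the score less closely. Junb had 1.07-fold per unit of score (adjusted p = 0.572), Ier2 1.09-fold (0.608), Zfp36 1.15-fold (0.368) and Gadd45g 1.69-fold (0.378). Of the 357 rows at least 1.2-fold higher in immediate-early-high livers, 345 (96.6%) had a positive slope in the middle livers, where 46.3% of all rows did. Of the 191 rows at least 1.2-fold lower, 181 (94.8%) had a negative slope, against 53.7% of all rows. Among rows called in both, 47 were higher and positive, which is 92.2% of the 51 and 3.21% of the 1466, and 23 were lower and negative, which is 67.6% of the 34 and 1.35% of the 1702.

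**Figure D5:**
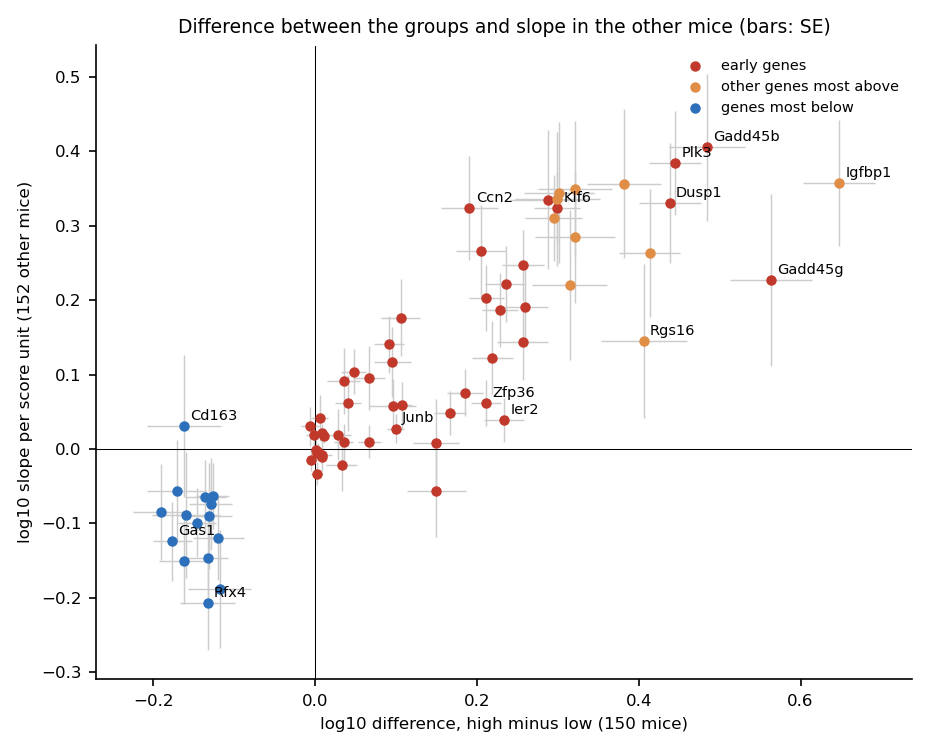
Slope on the score in the 152 livers of neither group (vertical axis, log10 per unit of score) against the difference between immediate-early-high and immediate-early-low livers (horizontal axis, log10). Points are early genes (red), other genes most higher (orange) and genes most lower (blue), with bars of 1 standard error. Junb, Ier2 and Zfp36 lie right of 0 with slopes near 0, and Cd163 is lower in the contrast with a slope just above 0.

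The difference between the groups was compared across parts of the cross with an interaction term in limma. Between mice with Eif2s3y above and below -0.8, 0 rows (0%) passed, the lowest adjusted p was 0.160, and 1205 rows had an unadjusted p under 0.05. Without the mice numbered 73 to 85 this count was 3. Between title numbers above 212 and up to 212, 22 rows (0.101%) passed, and 3204 had an unadjusted p under 0.05. Without the mice numbered 73 to 85 it was 171, and without the arrays of wide spread 123, so the number of such rows depended on those mice. Rel, an NF-kB subunit, was 1.01-fold among numbers above 212 and 1.35-fold among numbers up to 212 (interaction adjusted p = 0.00324). Cpeb4, which regulates translation, was 1.43-fold above 212 and 0.896-fold up to it (adjusted p = 0.000276).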

How the data were processed

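Per the labels, liver RNA of 302 mice carried Cy3 and the pool Cy5. The authors deposited 1 table of log ratios (23562 probes), read here as log10 of mouse over pool; log base and direction are not stated. Values end at -2 and 2, and in 160 mice (53.0%) the median of the Y-linked Eif2s3y was 0.195, where log10 gives 0.276, log2 0.917 and natural log 0.635 if only these mice carry it. The lowest correlation between arrays was -0.519, with 1035 of 45451 pairs below -0.3, but as dyes were alike on all arrays the direction was kept. How the authors extracted and normalized the signals is not stated here, and no further scaling was applied. The number of mice limits the precision.

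Probes were named through an annotation table and a mouse gene table (GRCm38.p6): 13655 had 1 symbol, 48 several, and 12652 matched 10838 genes. Probes of a gene were averaged (1154 genes had more than 1; of 161 such genes called, 23 had probes of opposite sign). Rows with values in at least 90% of mice were fitted with limma 3.58.1 (R 4.3.3): group plus 4 blocks, two-sided, Benjamini-Hochberg over all rows except the 4 genes of the score. The fits were tested on simulated data. Mice are separate animals by title number. The genes and lists of the contrast were chosen with earlier results of these data known. Named genes are the 4 genes of the score, the measured early genes, the 15 most higher and 15 most lower genes with 1 sign in all blocks, up to 4 genes with the largest differences in each other list, and 5 genes of each interaction. Alternatives covered blocks, group size, genes of the score, probes, scaling, limits, variance model, missing values and parts of the mice. Leaving out the ends of the score or mice 73 to 85, and the spline of title number, were chosen after seeing the data. Promoter sequences are from RefSeq.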

Additional observations from a re-analysis of the deposited data

Results flagged for a closer look

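For 22 rows the difference between immediate-early-high and immediate-early-low livers itself differed between title numbers above 212 and up to 212, by an interaction term in limma at an adjusted p under 0.05. Of these 8 were larger above 212 and 14 smaller. The 5 named genes with the lowest adjusted p follow, as log10 differences above 212 minus up to 212. Cpeb4 had 0.203, with 1.43-fold above 212 and 0.896-fold up to 212 (adjusted p = 0.000276). Rel had -0.128, with 1.01-fold above 212 and 1.35-fold up to it (0.00324). Coq10b, a mitochondrial coenzyme Q protein, had -0.230, with 0.924-fold above 212 and 1.57-fold up to it (0.00864). Irak1, a kinase of interleukin-1 and Toll-like receptor signalling, had 0.0615, with 1.09-fold above 212 and 0.945-fold up to it (0.00864). Kbtbd3 had -0.0902, with 0.914-fold above 212 and 1.13-fold up to it (0.0169).

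Mouse 77 (array SD 0.258) and mouse 170 (array SD 0.225), both immediate-early-high, had arrays of wide spread. Without mouse 77 the number of rows was 30, without mouse 170 it was 85, and without both 123. All 5 named genes still passed without both: Cpeb4 had 0.200, Rel -0.125, Coq10b -0.227, Irak1 0.0606 and Kbtbd3 -0.0854, with adjusted p of 0.000520, 0.00240, 0.0102, 0.0102 and 0.0193. The part of mice 73 to 85 in these 5 genes was not tested.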

How the results depend on the processing

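Of 115 named genes that passed, 44 kept direction and side of the threshold in all alternatives run. Over 2653 alternative values 2342 kept both, 306 kept the direction but not the threshold, and 5 turned: the weakest probe of Actg1 (-0.0172 in log10), Actb (-0.00479), Rrm2 (-0.0406) and Cdh1 (-0.00135), and Ccn1 among numbers above 212 (-0.00423). The cause was not tested. The counts of rows that were higher, lower, at least 1.2-fold higher and at least 1.2-fold lower were 1466, 1702, 357 and 191. Leaving Egr1 out of the score gave 2656, 3700, 601 and 399. Leaving out Btg2 gave 111 at least 1.2-fold lower. The 50 against 50 extreme mice gave 317 at least 1.2-fold lower, and the slope over all mice 173 higher and 60 lower at that size. Parts of the mice hold fewer samples: 751 higher and 986 lower with Eif2s3y below -0.8, 488 and 425 with it above, 817 and 815 for numbers up to 212, and 943 higher above 212, where 404 were at least 1.2-fold lower. Without mice 73 to 85, 290 were at least 1.2-fold lower, and with the spline 346. Without the 10 highest and 10 lowest scores 408 were at least 1.2-fold higher and 236 lower. The other counts stayed within 1.5 times.

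In the middle livers (51 rising, 34 falling) the counts were 26 and 7 without blocks, 21 and 8 with the title number, 25 and 12 with scaled arrays, and 18 falling after quantile normalization. Differing between Eif2s3y clusters were 3 rows without mice 73 to 85 (otherwise 0). Differing between number ranges were 14 after quantile normalization, 123 without arrays of wide spread and 171 without mice 73 to 85 (main count 22). The median of all rows was -0.00330 in log2, and -0.000537 with scaled arrays. No paired analysis was possible because the labels give 1 group and the extreme groups share no replicate numbers. Signal over background is not in the table, so dim probes could not be set apart.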

Other observations

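Genes whose symbol is Zfp and a number were chosen after their values were seen and carry no test as a group. Of 134 measured, 28 (20.9%) passed as lower in immediate-early-high livers and 5 (3.73%) as higher, where 7.84% and 6.75% of all rows did, and their median was 0.976-fold. The most lower were Zfp467 (1.37-fold), Zfp503 (1.35-fold), Zfp101 (1.28-fold, adjusted p = 2.36e-13 in limma), Zfp354b (1.27-fold) and Zfp322a (1.26-fold). With scaled arrays 30 were lower and 6 higher, and with the title number 36 and 6. In the 152 livers of neither group 85 of the 134 slopes on the score were negative, where 53.7% of all rows had a negative slope, and 0 passed as negative. Zfp36, an RNA-binding early gene, is counted among the 5 that were higher.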
